A study of Homo sapiens with 18 samples.

Results

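The comparison described here set CARM1 knockout cells against control cells after both had been treated with tunicamycin. It drew on 6 of the 18 libraries of the series, 3 labelled koCARM1.TM and 3 labelled WT.TM, which were taken by their labels alone. All libraries came from A1847, an established human ovarian cancer cell line. The koCARM1 cells carried a CRISPR knockout of CARM1 made with the lentiviral vector pLentiCRISPR v2 and puromycin selection, and the sources used here do not say whether they were 1 clone or a pool. The control cells are labelled wild type, and the vector they carried, if any, is not stated. Cells received 5 μg/ml tunicamycin for 8 h, and polyadenylated RNA was counted at its 3′ ends. Reference points came from the remaining libraries. Of these, 6 were the same cells (koCARM1 and wild type) under vehicle and 3 were A1847 cells under tunicamycin with a short hairpin RNA against XBP1. The other 3, cells with that hairpin under vehicle, entered the count filter, the scaling of levels and an alternative fit of all 18 libraries. No label says that the 3 libraries of a group came from separate cultures, so every p-value measures the spread between libraries, which may be technical.

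CARM1, also called PRMT4, is an arginine methyltransferase that coactivates transcription by methylating histones and other regulators. Tunicamycin blocks DPAGT1, the enzyme that starts the assembly of N-linked glycans, so that newly made glycoproteins misfold in the endoplasmic reticulum (ER). The ER answers through 3 membrane sensors. IRE1α, encoded by ERN1, splices XBP1 mRNA into a form that encodes the transcription factor XBP1s. ATF6 is released by proteolysis and enters the nucleus, and PERK, encoded by EIF2AK3, phosphorylates eIF2α and so favors the translation of ATF4. The genes they induce encode chaperones, oxidases, glycosylation enzymes, ER-associated degradation (ERAD) factors and the coats and receptors of ER export. The question asked here was at what level each of these genes stood once both genotypes had met the stress.

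Levels are given as counts per 1000000 (CPM), with each library's total scaled by its TMM factor, and are compared for the same gene between libraries. Differences are log2 fold changes of knockout over control from edgeR's quasi-likelihood test, with their standard error (SE) and a Benjamini-Hochberg adjusted p. A gene was called at an adjusted p below 0.05. Totals lay between 11774445 and 12965747 counts in the control libraries and between 12845064 and 13811462 in the knockout libraries. An exact permutation test of 3 against 3 libraries cannot go below p = 0.1, so single genes were tested only within the fit across all genes.

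The genotypes stood far apart before any stress gene was examined. Pearson correlations of log2 CPM were 0.987 to 0.989 between libraries of 1 group but 0.753 to 0.769 between knockout and control under tunicamycin. Knockout libraries under tunicamycin correlated at 0.971 to 0.975 with knockout libraries under vehicle, and XBP1 knockdown libraries under tunicamycin at 0.98 to 0.985 with control libraries under tunicamycin. Ribosomal protein genes took 8.05% to 8.17% of the counts in the knockout libraries and 5.91% to 6.28% in the controls. Of 17317 genes tested, 6642 (38.4%) were called higher in the knockout and 6376 (36.8%) lower. The CPM of the 3 knockout and the 3 control libraries did not overlap for 13350 genes (77.1%). A difference of at least 2-fold was called for 3841 genes (22.2%) on the higher side and 3067 (17.7%) on the lower side. The median absolute log2 fold change was 0.782 against a median SE of 0.132. A called difference between these groups was therefore the rule for any gene, and each count below is set against these shares.

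Cell type markers moved with the genotype. Ovarian and Müllerian markers, which label the tissue of origin, were almost absent from the control libraries. Their summed level was 1.73 to 3.11 CPM there, with 10 of 12 markers at no more than 3 counts in every library and MUC16, EMX2, ESR1, KLK6 and KLK7 at 0. In the knockout libraries the sum was 62.2 to 68.8 CPM, 6 of 12 were at that floor and MUC16, SOX17, EMX2, KLK6 and KLK7 were at 0. PAX8, a Müllerian transcription factor, had 2, 0 and 2 counts in the control libraries and 465, 564 and 576 in the knockout libraries (at least 180-fold higher, with a floor of 3 counts per library). MSLN, which encodes the surface antigen mesothelin, had 1, 0 and 0 against 135, 153 and 116 counts (at least 45.4-fold higher). Both groups of counts were far apart for either gene. The label of an ovarian line thus has little marker evidence in the control libraries.

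The sum over 14 epithelial markers was 466 to 491 CPM in the control libraries and 2220.0 to 2329.6 in the knockout libraries, and that over 10 mesenchymal markers 723 to 743 and 4470.5 to 4713 CPM. The sum over 8 fibroblast markers was 1092 to 1118 CPM in the control libraries and 187 to 216 CPM in the knockout libraries. A few abundant genes carry these sums, and members differed in both directions. Of 9 epithelial markers tested 6 were higher and 1 lower, of 9 mesenchymal markers 6 were higher and 3 lower, and of 7 fibroblast markers 1 was higher and 5 lower. KRT19, a keratin, had 28, 38 and 44 counts in the control libraries and 0, 0 and 0 in the knockout libraries (at least 12-fold lower), and the mesenchymal factor gene SNAI2 was lower (−3.39), whereas the collagen gene COL1A1 was higher (4.42). KRT8, a keratin of simple epithelia, measured 59.8, 72.0 and 65.3 CPM in the control libraries and 742, 627 and 626 CPM in the knockout libraries. FN1, which encodes fibronectin, measured 2.66, 2.72 and 3.57 against 2532, 2412 and 2447 CPM. COL1A2, a type I collagen chain, measured 721, 701 and 728 against 1.29, 2.70 and 0.397 CPM. The libraries of each group lay together and far from the other group for these genes. Blood, endothelial and liver markers summed to at most 3.86 CPM in any library of either group, and neural markers to 11.1 to 13.7 CPM in the controls and 86.4 to 90.9 in the knockout, most of it TUBB3. The part of these marker differences in the results that follow was not tested, and in bulk RNA fewer cells of a type and less RNA per cell cannot be told apart.

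**Figure D1:**
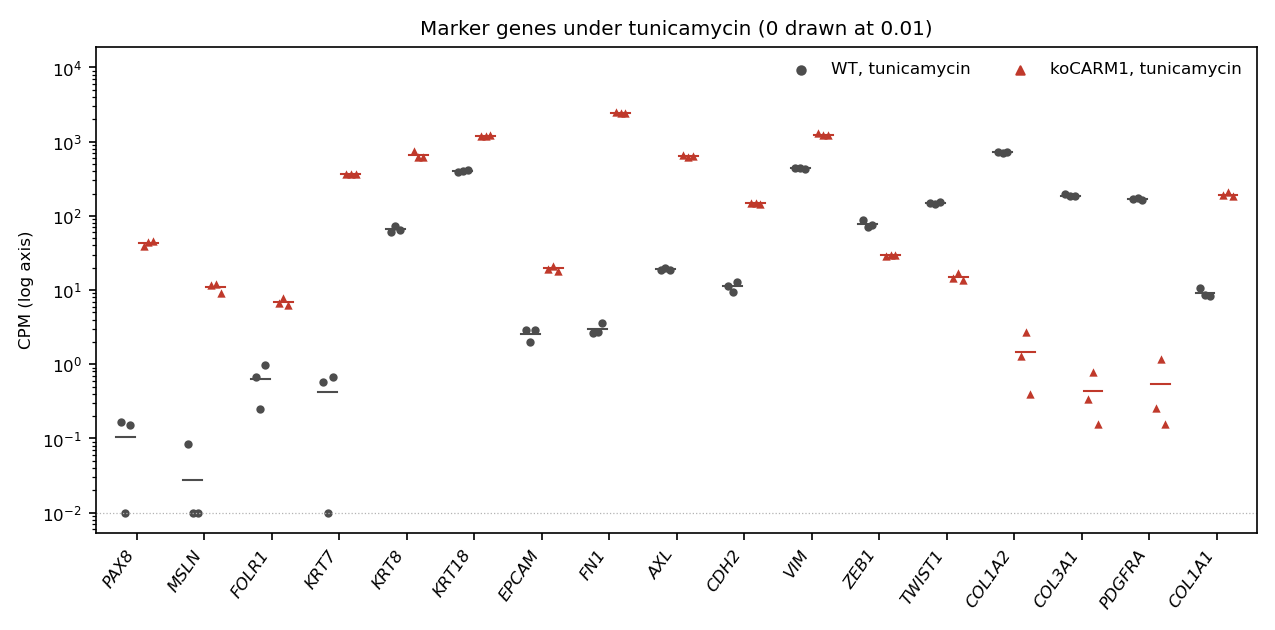
Level of 17 marker genes in CPM on a log axis, with 1 point per library (gray circles, control under tunicamycin; red triangles, CARM1 knockout under tunicamycin) and a bar at each group mean (n = 3); values of 0 are drawn at 0.01. The ovarian, epithelial and most mesenchymal markers plotted, and COL1A1, sit higher in the knockout libraries, while ZEB1, TWIST1, COL1A2, COL3A1 and PDGFRA sit lower.

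For the 10 lowest log2 fold changes among genes with at least 10 counts in each of the 6 libraries and a mean log2 CPM of at least 5, a limit that leaves out genes at 0, the CPM in the knockout libraries, as a percentage of the control mean, had medians of 0.543%, 0.775% and 0.39% in replicates 1, 2 and 3. POSTN, which encodes the matrix protein periostin, measured 996, 950.5 and 972 CPM in the control libraries and 0.943, 3.49 and 0.953 CPM in the knockout libraries. Replicate 2 of the knockout was thus the highest for POSTN, as it was for CCND2, COL1A2, COL3A1 and PDGFRA. Without that library 12428 genes were called in place of 13018, 12311 of them shared, and none of the shared calls changed direction.

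CARM1 itself (ENSG00000142453, chromosome 19, 10982229 to 11033751, plus strand in GRCh37) measured 133, 139.7 and 133 CPM in the control libraries and 76.1, 67.3 and 70.1 CPM in the knockout libraries. It was lower in every knockout library (log2 fold change −0.92, SE 0.056, adjusted p = 9.40e-10), and it was lower under vehicle as well (−1.17). The interaction of genotype and treatment, described below, was 0.204 for CARM1. It was not called as reported but was called in 13 of 21 alternative settings. The libraries read the 3′ end of the mRNA and the sources used here do not place the edited site there, so this level does not check the knockout. Of the 11 arginine methyltransferase genes and cofactors tested, CARM1 included, 3 were higher and 4 lower. PRMT2, a nuclear member of the family, was higher (95.3 to 199.5 CPM, log2 fold change 1.07), as was PRMT5, the main enzyme of symmetric dimethylation (0.54). PRMT1, the main enzyme of asymmetric dimethylation, was lower (488 to 324 CPM, −0.58). Among 15 known partners and substrates of CARM1, 7 were higher and 7 lower. They ran from the transcription factor gene RUNX1 (3.75) to SOX2, a transcription factor gene that had 39, 35 and 38 counts in the control libraries and 1, 2 and 4 in the knockout libraries (−3.91). The poly(A)-binding protein gene PABPC1 was higher (1.04) and the coactivator gene NCOA1 lower (−1.81).

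Among 11 genes of the sensors and their transcription factors, 3 were higher and 6 lower in the knockout, with a median log2 fold change of −0.466 against −0.0165 over all genes tested. XBP1 (ENSG00000100219, chromosome 22, 29190543 to 29196585, minus strand) measured 153, 148 and 148 CPM in the control libraries and 140.4, 145 and 143 CPM in the knockout libraries. The groups lay next to each other without overlap and the difference was not called (log2 fold change −0.06, SE 0.045, adjusted p = 0.244), although it was called lower when library totals replaced TMM scaling (−0.225, adjusted p = 4.47e-04). For comparison, the XBP1 knockdown libraries stood at 71.5 ± 2.34 CPM (SD, n = 3). Counts at the 3′ end do not separate spliced from unspliced XBP1 mRNA.

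ATF6 (ENSG00000118217, chromosome 1, 161736088 to 161947364, plus strand) measured 146, 141 and 139 CPM in the control libraries and 78.6, 81.7 and 87.3 CPM in the knockout libraries, with every knockout library below every control (log2 fold change −0.78, SE 0.053, adjusted p = 3.84e-09). EIF2AK3 (ENSG00000172071, chromosome 2, 88856259 to 88991036, minus strand) was likewise lower, at 32.7, 28.2 and 30.6 CPM against 45.4, 55.7 and 54.0 (log2 fold change −0.75, SE 0.088, adjusted p = 1.57e-06). MBTPS2, which encodes the site-2 protease that cuts ATF6, was lower as well (29.9 to 11.2 CPM, −1.41). ERN1 (ENSG00000178607, chromosome 17, 62116440 to 62208179, minus strand) measured 22.5, 22.4 and 22.8 against 24.2, 28.6 and 25.5 CPM. Its call as higher was narrow (log2 fold change 0.22, SE 0.088, adjusted p = 0.0381) and was lost without replicate 2 of the knockout, the highest library (adjusted p = 0.192), and under library totals (adjusted p = 0.617). Highest in this list were the genes of a pair of membrane-bound factors, CREB3L1 (0.94) and CREB3L2 (0.81), whose differences were 2.68 and 2.25 under vehicle.

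**Figure D2:**
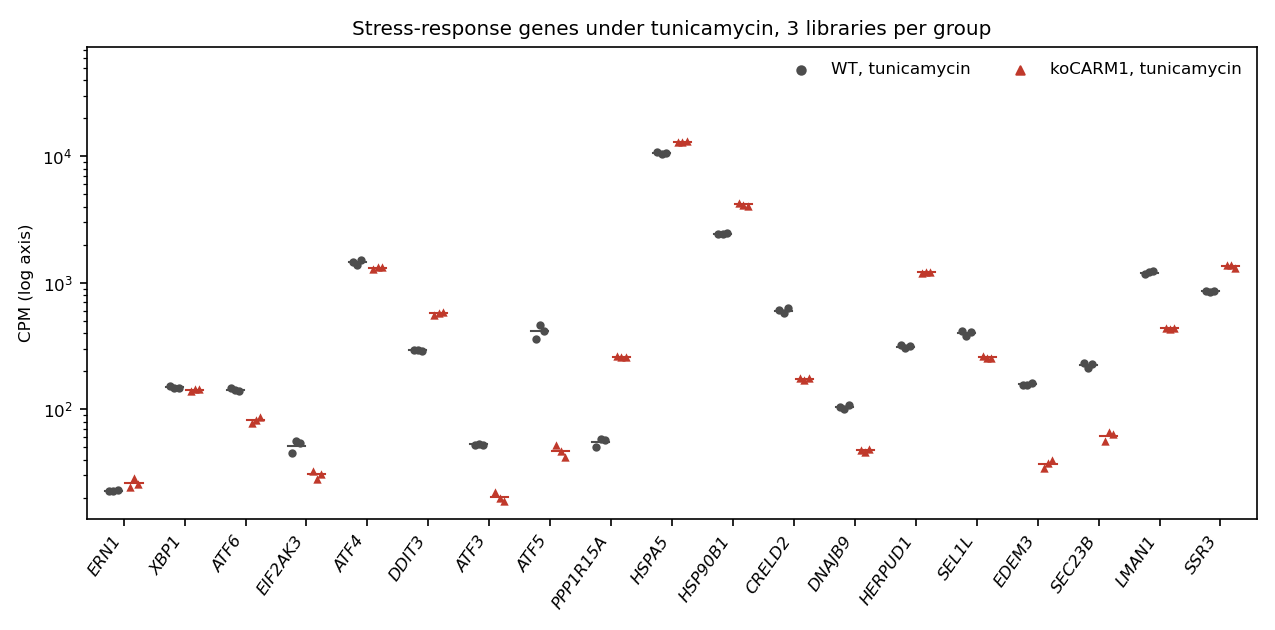
Level of 19 stress-response genes in CPM on a log axis under tunicamycin, with 1 point per library (gray circles, control; red triangles, CARM1 knockout) and a bar at each group mean (n = 3). ATF5, CRELD2, EDEM3, SEC23B and LMAN1 sit lower in the knockout libraries and PPP1R15A and HERPUD1 higher, while the points of XBP1 lie side by side.

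The PERK and ATF4 branch was split, with 5 of 15 genes higher, 8 lower and 2 not called. ATF4 (ENSG00000128272, chromosome 22, 39915700 to 39918688, plus strand), its central transcription factor, measured 1459.7, 1390.3 and 1509 CPM in the control libraries and 1296, 1323 and 1339.8 CPM in the knockout libraries. The groups did not overlap but differed by only 1.1-fold (log2 fold change −0.13, SE 0.039, adjusted p = 0.00653), and the call was lost without replicate 3 of the control (adjusted p = 0.0993). DDIT3 (ENSG00000175197, chromosome 12, 57910371 to 57915520, minus strand), which encodes the pro-apoptotic factor CHOP, was higher at 558, 575 and 584 CPM against 296, 293 and 288 (log2 fold change 0.98, SE 0.040, adjusted p = 7.71e-12). PPP1R15A, whose product GADD34 brings phosphatase to eIF2α, stood at 263, 259 and 260.5 CPM against 50.6, 58.0 and 57.4 (log2 fold change 2.24, SE 0.056, adjusted p = 2.69e-14). The pseudokinase gene TRIB3 (0.90) and the secreted hormone gene STC2 (0.79) were higher too. Each of these genes had all 3 knockout libraries above all 3 controls.

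Other targets of the branch were far lower. ATF5, a transcription factor translated under eIF2α phosphorylation, measured 358, 462 and 418 CPM in the control libraries and 52.5, 46.6 and 42.1 CPM in the knockout libraries (log2 fold change −3.13, SE 0.092, adjusted p = 1.75e-13). GDF15, a secreted stress cytokine, measured 134, 163 and 155 against 19.8, 15.9 and 15.7 CPM (−3.13), and NUPR1, a small stress-induced nuclear protein, 15.5, 13.7 and 16.2 against 0.429, 0.872 and 0.715 CPM (−4.46). The libraries of the groups were widely separated for these 3 genes. CHAC1, which degrades glutathione, was 186 against 68.9 CPM (−1.43), SESN2, an inhibitor of mTORC1, 918 against 367 CPM (−1.32), and ATF3 52.4, 53.6 and 52.1 against 22.1, 19.8 and 18.9 CPM (−1.37). Genes counted as targets of 1 factor thus stood on both sides of the controls.

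Amino acid supply, which ATF4 also controls, was split as well. Of 11 synthesis enzymes 4 were higher and 5 lower, and of 9 transporters 3 and 4. Serine synthesis showed both directions, with PHGDH at 312 against 251 CPM (0.32), PSAT1 at 435 against 639.9 (−0.55) and PSPH at 71.2 against 166 (−1.22). PYCR1, the last enzyme of proline synthesis, had 4, 1 and 6 counts in the control libraries and 2679, 2871 and 2828 in the knockout libraries. It was near 0 in every control library. The cystine carrier gene SLC7A11 stood at 789, 812 and 841 CPM against 250.5, 261 and 251 (log2 fold change 1.69, SE 0.042, adjusted p = 2.42e-14), and SLC38A2, a carrier of neutral amino acids, at 353 against 713 (−1.01). Of 20 cytosolic tRNA synthetases 5 were higher and 10 lower (median −0.13), from SARS1 (1.08) to KARS1 (−1.02) and NARS1 (−1.43).

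Chaperones and folding factors of the ER lumen were called in 12 of 13 cases, 5 higher and 7 lower, with a median of −0.333. HSPA5 (ENSG00000044574, chromosome 9, 127997132 to 128003661, minus strand), which encodes the central ER chaperone BiP, measured 10824, 10485 and 10716 CPM in the control libraries and 13026, 13009 and 13204 CPM in the knockout libraries. All 3 knockout libraries were above the controls, by 1.23-fold (log2 fold change 0.30, SE 0.029, adjusted p = 2.44e-07). HSP90B1, the ER paralog of HSP90, was higher at 4294, 4161 and 4066 CPM against 2432, 2427 and 2476 (log2 fold change 0.78, SE 0.034, adjusted p = 1.86e-11), and MANF, a secreted BiP cofactor, at 1711, 1579 and 1586 CPM against 952, 1121 and 1097 (log2 fold change 0.63, SE 0.056, adjusted p = 7.38e-08). The lectin chaperones diverged, with CANX (calnexin) at 0.56 and CALR (calreticulin) at −0.33.

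Lowest of the list was CRELD2, an ER-resident factor induced by stress, at 609, 574 and 629.8 CPM in the control libraries and 178, 170.1 and 178 CPM in the knockout libraries (log2 fold change −1.78, SE 0.046, adjusted p = 3.86e-14). FKBP14, a prolyl isomerase for collagens, followed at 195 against 86.5 CPM (−1.17). HYOU1, a nucleotide exchange factor for BiP, was 988 against 660.4 CPM (−0.57) and SDF2L1, a BiP cofactor, 1041 against 752 CPM (−0.46). HSPA5 was thus higher in the knockout, as was the gene of its cofactor MANF, while the genes of its cofactors HYOU1 and SDF2L1 were lower.

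Promoter sequences are given for HSPA5, HERPUD1, CRELD2 and ALG12, which each hold an ER stress element and differ in direction. The element is ERSE-II in HERPUD1 and ERSE in the others, as defined next. Only exact matches of the fixed letters were counted. The elements searched, on both strands, were the ER stress response element (ERSE, CCAAT and CCACG 9 bases apart), ERSE-II (ATTGG and CCACG 1 base apart), the core of the XBP1s and ATF6 element (TGACGTG) and the ATF4 and CEBP element (TGATGNAAN). Each line gives the 250 bases before the transcription start from RefSeq (GRCh38.p14), written 5′ to 3′ along the gene, with the fixed letters of ERSE or ERSE-II in capitals. In HERPUD1 the capitals before ERSE-II mark the ATF4 and CEBP element on the other strand.
HSPA5 (chr9:125241344-125241593, minus strand): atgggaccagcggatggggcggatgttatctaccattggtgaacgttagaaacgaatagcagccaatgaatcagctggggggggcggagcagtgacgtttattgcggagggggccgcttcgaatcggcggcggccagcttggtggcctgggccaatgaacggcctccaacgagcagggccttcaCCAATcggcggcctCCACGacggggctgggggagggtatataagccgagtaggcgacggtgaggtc
HERPUD1 (chr16:56931892-56932141, plus strand): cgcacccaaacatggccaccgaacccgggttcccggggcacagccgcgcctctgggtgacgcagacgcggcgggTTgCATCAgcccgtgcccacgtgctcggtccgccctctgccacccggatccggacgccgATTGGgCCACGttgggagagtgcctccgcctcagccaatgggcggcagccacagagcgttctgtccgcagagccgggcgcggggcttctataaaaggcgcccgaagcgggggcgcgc
CRELD2 (chr22:49918384-49918633, plus strand): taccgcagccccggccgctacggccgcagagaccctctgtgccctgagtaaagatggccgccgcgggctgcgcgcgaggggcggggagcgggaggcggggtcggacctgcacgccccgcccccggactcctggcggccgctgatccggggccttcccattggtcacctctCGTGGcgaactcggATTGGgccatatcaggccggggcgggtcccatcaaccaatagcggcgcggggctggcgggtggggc
ALG12 (chr22:49918439-49918688, minus strand): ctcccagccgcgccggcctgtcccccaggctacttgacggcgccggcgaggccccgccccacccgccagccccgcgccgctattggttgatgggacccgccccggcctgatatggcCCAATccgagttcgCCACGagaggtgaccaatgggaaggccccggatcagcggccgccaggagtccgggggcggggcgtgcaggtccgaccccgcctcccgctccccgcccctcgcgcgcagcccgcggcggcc

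CRELD2 and ALG12 are divergent neighbors on chromosome 22, and the ERSE in the line for CRELD2 is the same 19 bases, chr22:49918554-49918572, as that in the line for ALG12. Both genes were lower in the knockout, ALG12 at 15.7, 18.4 and 17.8 CPM against 79.4, 83.1 and 91.9 (log2 fold change −2.29, SE 0.082, adjusted p = 1.76e-12). HERPUD1, with ERSE-II, was higher (1.95), and HSPA5, with ERSE, was higher by far less (0.30). A RefSeq promoter of 300 bases (250 before to 50 after the start) was matched for 11768 of the genes tested and 399 of the 499 list genes tested. ERSE was found in 14 of the 11768 (0.119%). Of the list genes, CRELD2, CALR, ALG12 and ERO1B, which carry it, were lower, HSPA5, CANX and HSP90B1 were higher and XBP1 was not called. ERSE-II was found in 11 promoters (0.0935%), among them those of HYOU1 and SDF2L1, both lower, and HERPUD1. The core TGACGTG stood in 292 promoters (2.48%) and the ATF4 and CEBP element in 217 (1.84%), including 6 of 16 tRNA synthetase promoters (37.5%). The 24 list genes with TGACGTG were 8 higher, 10 lower and 6 not called, and the 15 with the ATF4 and CEBP element 5, 6 and 4. A match is a string of letters and says nothing about binding.

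J-domain co-chaperones of the ER were mostly lower, with 1 of 10 higher, 7 lower and a median of −0.601. DNAJB9 (ENSG00000128590, chromosome 7, 108210311 to 108215294, plus strand), the regulator ERdj4, measured 104, 99.8 and 108 CPM in the control libraries and 47.5, 45.8 and 48.4 CPM in the knockout libraries (log2 fold change −1.13, SE 0.057, adjusted p = 9.96e-11). DNAJB11, the luminal ERdj3, was 606, 634 and 634 against 336, 341 and 326 CPM (−0.90), and SEC63, which holds BiP at the translocon, 565, 538 and 551 against 244, 234 and 236 CPM (−1.21). No knockout library reached a control library for these 3 genes. DNAJC16 was lower as well (−1.35) and DNAJB12, an ERAD J-protein, was the only member called higher (0.51), while DNAJC3, the PERK inhibitor p58IPK, was 435 against 443 CPM (0.033, adjusted p = 0.52).

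Disulfide isomerases and oxidases divided evenly, 9 higher and 9 lower of 19. ERO1A and ERO1B, the oxidases that recharge the isomerases, were both lower (119 to 57.5 and 94.9 to 51.4 CPM, −1.04 and −0.88). ERP44, which retains ERO1 in the ER, was 215, 218 and 214 against 101, 95.8 and 94.8 CPM (−1.15). P4HB, the founding isomerase, was lower (669 to 425 CPM, −0.65) and PDIA4 higher (257 to 336 CPM, 0.39). QSOX1, a secreted sulfhydryl oxidase, was the highest at 119, 116 and 109.8 CPM against 32.7, 29.5 and 29.7 (1.92), followed by SELENOF (0.80).

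At the entry to the ER, genes of the SEC61 channel and the translocon-associated TRAP complex were 5 higher and 5 lower of 11 (median 0.14). SSR3, a TRAP subunit, stood at 1376, 1384 and 1314 CPM against 861, 849.5 and 862 (0.67), and SSR1 at 610.2 against 344 (0.83), whereas SSR2 and SSR4 of the same complex were lower (−0.60 and −0.34). SEC62, a partner of SEC63, was lower too (−0.34), and SEC61A2, the minor channel subunit, was lowest (−1.46). Signal recognition particle and signal peptidase genes were 6 higher and 7 lower of 13, all of them called. The 6 higher ones differed by at most 0.35 (SRPRB, the receptor's β subunit), and only 2 of the list were called higher with library totals. SEC11C, a catalytic subunit of signal peptidase, was the lowest at 58.7, 49.5 and 52.4 CPM against 195, 199.8 and 209 (−1.91), while its paralog SEC11A was 384 against 328 CPM (−0.22).

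N-glycan precursor assembly, the pathway tunicamycin blocks, had 1 gene higher, 9 lower and 6 not called of 16 (median −0.203). DPAGT1 (ENSG00000172269, chromosome 11, 118966735 to 118979041, minus strand), the target of the drug, measured 63.8, 60.3 and 65.6 CPM in the control libraries and 54.9, 52.5 and 57.0 CPM in the knockout libraries, a small difference (log2 fold change −0.20, SE 0.061, adjusted p = 0.00805) that was not called without replicate 3 of the control (adjusted p = 0.061). ALG12 and ALG3, mannosyltransferases of the later steps, were the lowest (−2.29 and −0.98), and ALG14, part of the transferase that adds the second sugar, was the only one higher (19.4 to 30.8 CPM, 0.68). Oligosaccharyltransferase and glycan quality control genes were 5 higher and 8 lower of 18. DDOST, a core subunit, was 175, 195 and 165 against 69.6, 66.9 and 64.9 CPM (−1.40), and of the catalytic subunits STT3A was lower (−0.49) and STT3B higher (0.18). DAD1, another core subunit, was the highest (74.2 to 149.9 CPM, 1.02). In the hexosamine pathway, which makes UDP-GlcNAc, UAP1 stood at 299, 314 and 320.1 CPM against 48.6, 45.2 and 45.4 (log2 fold change 2.75, SE 0.053, adjusted p = 1.31e-15) and GNPNAT1 at 145 against 326 (−1.16).

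ERAD genes, which retrieve misfolded proteins for the proteasome, were 10 higher and 12 lower of 27 (median −0.046). HERPUD1, a membrane scaffold of the HRD1 ligase, was the highest at 1192, 1220.0 and 1211 CPM against 319.5, 303 and 317 (log2 fold change 1.95, SE 0.039, adjusted p = 2.23e-15). The conjugating enzyme gene UBE2J1 was also higher (146 to 358 CPM, 1.30). SEL1L, the scaffold that HRD1 depends on, was lower at 261, 255 and 255 CPM against 413, 379 and 411 (log2 fold change −0.63, SE 0.044, adjusted p = 4.79e-09), and SYVN1, HRD1 itself, was 141 against 139.7 CPM (−0.009, adjusted p = 0.881). The partners of 1 ligase complex thus stood higher, lower and level.

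Of 5 factors that trim or read glycans for ERAD, 3 were lower and 1 higher. EDEM3, a mannosidase, measured 155, 156 and 163 CPM in the control libraries and 34.5, 37.7 and 39.5 CPM in the knockout libraries (log2 fold change −2.08, SE 0.060, adjusted p = 1.47e-13), the lowest of the ERAD list. The lectin gene ERLEC1 was 261, 246 and 257 against 79.7, 79.4 and 83.6 CPM (−1.65), EDEM2 was 13.3 against 7.02 (−0.92) and EDEM1 29.6 against 35.6 (0.27), while the lectin gene OS9 was 172 against 177 (0.041, adjusted p = 0.451). VCP, the ATPase that pulls substrates out of the membrane, was lower at 276, 291 and 285 CPM against 703, 688 and 746 (−1.32), as was its cofactor NPLOC4 (−0.66). Of the derlins, channel proteins of ERAD, DERL2 and DERL3 were lower (−1.06 and −1.13) and DERL1 higher (0.77). Of 30 proteasome subunits 9 were higher and 17 lower (median −0.17), from PSMB7 (1.24) and PSMA7 (0.83) to PSMC2 (−1.28) and PSMD7 (−1.50).

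Genes of ER export had their largest differences downward. Of 16 COPII coat genes tested 3 were higher and 9 lower (median −0.248). SEC23B, an inner coat subunit, measured 233, 214 and 227 CPM in the control libraries and 55.7, 66.6 and 63.2 CPM in the knockout libraries (log2 fold change −1.85, SE 0.064, adjusted p = 1.09e-12), while its paralog SEC23A was 103 against 87.9 CPM (−0.23). TFG, which organizes exit sites, was 355 against 119.6 CPM (−1.56) and the outer coat gene SEC31A 419 against 203 (−1.04). SAR1A, the GTPase that starts coat assembly, was higher (107 to 203 CPM, 0.94), as was the cargo adaptor SEC24C (0.78).

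Cargo receptors and SNAREs were 11 higher and 10 lower of 23 (median 0.12), with 7 higher when library totals were used. LMAN1 (ERGIC-53), a lectin that exports glycoproteins, was 1166, 1222 and 1229 CPM in the control libraries and 439.9, 433 and 436 CPM in the knockout libraries (log2 fold change −1.46, SE 0.038, adjusted p = 4.81e-14). Its partner MCFD2 was also lower (335 to 162 CPM, −1.04). Among the KDEL receptors, which return chaperones to the ER, KDELR3 was higher (13.2 to 33.8 CPM, 1.36), KDELR2 slightly higher (0.17) and KDELR1 slightly lower (623 to 527 CPM, −0.24). TMED9, a p24 receptor, stood at 1246 against 715 CPM (0.81), and ERGIC1, a cycling membrane protein, at 150.2 against 62.4 (1.27). Of 8 UFMylation genes, which tag ribosomes stalled at the ER, 5 were lower, among them the ligase gene UFL1 (−0.81) and the conjugating enzyme gene UFC1 (−0.58), and 2 were higher, DDRGK1 (0.63) and CDK5RAP3 (0.43).

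**Figure D3:**
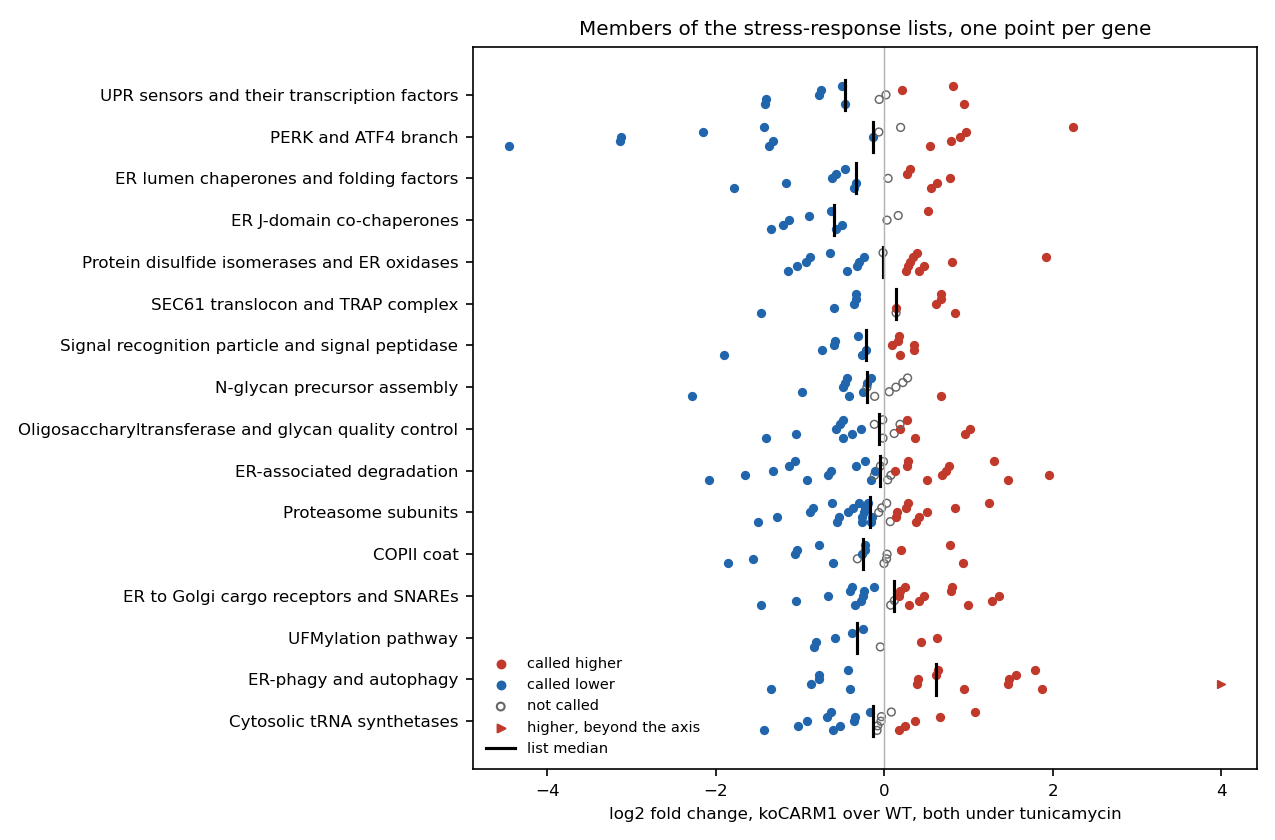
Log2 fold change of knockout over control under tunicamycin for each tested member of 16 gene lists (red, called higher; blue, called lower; open, not called; arrowheads, beyond the axis at 4), with a black line at each list's median. Every list holds members on both sides of 0, and the medians lie between −0.601 (ER J-domain co-chaperones) and 0.615 (ER-phagy and autophagy).

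Across the 11 lists of ER folding, entry, glycosylation, degradation and export, 174 genes were tested. Of these 58 (33.3%) were higher and 88 (50.6%) lower in the knockout under tunicamycin, beside 38.4% and 36.8% of all genes, and their median was −0.154. A difference of at least 2-fold was called for 7 of the 174 on the higher side and 23 on the lower side. Both were smaller shares than the 22.2% and 17.7% of all genes tested. The groups of libraries did not overlap for 145 of the 174 (83.3%), near the 77.1% of all genes tested. Library totals in place of TMM scaling moved the median of all genes by −0.165 and gave 40 higher and 102 lower members, and without replicate 2 of the knockout there were 55 and 84. These genes were thus lower more often than higher under each scaling run, and 28 of them were not called.

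Of 16 BCL2 family and TRAIL receptor genes tested 8 were higher and 6 lower. PMAIP1, which encodes the BH3-only protein NOXA, had 2, 0 and 2 counts in the control libraries and 774, 784 and 725 in the knockout libraries (at least 257-fold higher). BCL2L1 (BCL-XL), BAK1 and BID were higher (1.96, 1.79 and 1.56). BBC3 (PUMA) was lower at 34.4 against 47.2 CPM (−0.45), and so was MCL1 (−0.36). The TRAIL receptor genes differed in direction, with TNFRSF10B (−0.25) and TNFRSF10D (−0.45) lower. TNFRSF10A was at the detection floor in the control libraries and at least 29.4-fold higher in the knockout libraries. Genes both for and against apoptosis were found on each side.

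ER-phagy and autophagy genes were 11 higher and 6 lower of 17. The cargo receptor SQSTM1 (p62) stood at 319.5, 308 and 309 CPM against 90.6, 92.4 and 88.7 (log2 fold change 1.79, SE 0.045, adjusted p = 2.66e-14), MAP1LC3B at 240.2 against 87.0 (1.47) and the ER-phagy receptor gene ATL3 at 128 against 35.3 (1.87). RETREG1 (FAM134B), an ER-phagy receptor, had 0, 0 and 0 counts in the control libraries and 85, 72 and 57 in the knockout libraries (at least 24.2-fold higher). CCPG1, an ER-phagy receptor induced by stress, was the lowest of the list at 54.5, 54.4 and 55.6 CPM against 158, 127 and 134 (log2 fold change −1.34, SE 0.072, adjusted p = 2.19e-10). Receptors for the same process were therefore present at different levels in the genotypes.

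Of 9 reported mRNA substrates of IRE1, which its RNase can degrade, 7 were higher and 1 lower in the knockout (median 1.04). COL6A1 and CD59 were 56.3 and 55.9 CPM against 13.9 and 16.4 (2.03 and 1.78), BLOC1S1, often used as a readout of this activity, was 21.6 against 15.8 (0.46), and HGSNAT was the 1 lower (−0.56). Their differences under vehicle had a median of 1.64.

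NRF2 antioxidant genes were 10 higher and 4 lower of 17 (median 0.465). TXN (thioredoxin) stood at 726, 690.0 and 677 CPM against 132, 119 and 129 (log2 fold change 2.47, SE 0.049, adjusted p = 2.05e-15) and TXNRD1, its reductase, at 253 against 79.4 (1.68). The ferritin genes FTH1 and FTL were higher (1.80 and 1.75), though both have many near-identical copies in the genome and are uncertain. HMOX1, the inducible heme oxygenase, was far lower at 5.83, 6.11 and 6.99 CPM against 67.5, 71.6 and 68.8 (log2 fold change −3.45, SE 0.088, adjusted p = 3.52e-14). Cytosolic heat shock genes were 6 higher and 5 lower of 12, with HSPB1 (1.71) and HSP90AA1 (1.55) above and HSPA4 (−0.77) and HSPH1 (−0.53) below the controls. HSPA1A had 2, 0 and 4 counts in the control libraries and 751, 809 and 779 in the knockout libraries, but it shares most of its sequence with HSPA1B and is uncertain. Of 11 stress cytokine and angiogenic genes 8 were higher and 2 lower. The chemokine gene CXCL2 had 0, 0 and 0 counts against 209, 184 and 261 (at least 73.5-fold higher) and IL6 0, 0 and 0 against 40, 31 and 47 (at least 13.3-fold higher), so they were read in the knockout libraries alone, while VEGFA was 46.6 against 35.9 CPM (−0.37).

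Among 17 G1 cyclin and CDK inhibitor genes 11 were higher and 4 lower. CCND2 (cyclin D2) measured 1273, 1225 and 1221 CPM in the control libraries and 2.06, 7.22 and 1.03 CPM in the knockout libraries, and CCND1 (cyclin D1) 97.2, 96.0 and 101 against 335, 338 and 341 CPM (1.79). CCND2 was lower and CCND1 higher in every knockout library. CDK6 was 4.99, 4.86 and 4.48 against 253, 247 and 254 CPM (5.72), and CDKN2A, which encodes the CDK4 and CDK6 inhibitor p16, 16.3, 15.0 and 15.8 against 521, 540.0 and 539 CPM (5.09). CDKN1A, which encodes p21, was 29.9 against 34.8 CPM (0.22, adjusted p = 0.0551). Among 20 replication and mitosis genes 11 were higher and 6 lower, with smaller differences. MKI67 and BUB1 were higher (1.19 and 1.36) and MCM3 and RRM2, of DNA replication and nucleotide supply, lower (−0.88 and −0.49).

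Of 15 MHC class I and peptide loading genes 11 were higher and 3 lower. HLA-B was 60.5, 50.8 and 57.0 CPM in the control libraries and 658, 663 and 700.2 CPM in the knockout libraries (3.59), while B2M, the shared light chain, was 298, 307 and 291 against 71.0, 74.9 and 71.3 CPM (−2.04). HLA-B and the light chain thus differed in opposite directions. Reads can be split among the class I heavy chain genes, which are similar and variable in sequence, so their levels are uncertain. Cholesterol synthesis genes were 7 higher and 7 lower of 19, with the lower ones including SC5D (21.5 to 1.18 CPM, −4.15) and HMGCS1 (−1.53). Of 11 genes of Polycomb repressive complex 2, a histone methyltransferase complex, 7 were higher and 3 lower, with JARID2 highest (1.62), EZH2, the catalytic subunit, at 347 against 262 CPM (0.41) and RBBP4 lowest (−1.21).

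Over all genes, the lowest of those with at least 10 counts in each of the 6 libraries and a mean log2 CPM of at least 5 were POSTN (−9.05), CCND2 (−8.47), SPOCK2, HOXB5, NR2F1, ID2, RGS16, PCDH9, DLX2 and BOC (−6.73). They include the developmental transcription factor genes HOXB5, NR2F1 and DLX2. NR2F1 measured 848, 852 and 917 CPM in the control libraries and 3.60, 7.61 and 3.10 CPM in the knockout libraries. The highest were MT1E (10.33), MT2A (9.77), FN1 (9.68), ARHGAP29, S100A2, S100A10, OXTR, SLC44A3-AS1, PLAC8 and CSRP1 (7.45). MT2A, a metallothionein that binds zinc and copper, measured 11.4, 4.95 and 11.2 against 8185, 7942 and 8021 CPM. The metallothionein genes are near-identical copies, so their separate values are uncertain. The value of SLC44A3-AS1, annotated as a transcribed processed pseudogene, is uncertain too.

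Some genes were nearly absent from 1 genotype. In all, 210 genes (187 protein-coding) had at least 100 counts in every knockout library and no more than 3 in any control library, of which 163 had more than 3 counts in every knockout library and no more than 3 in any control library under vehicle as well. Of the 210, 160 had no more than 3 counts in any XBP1 knockdown library under tunicamycin. In the other direction there were 52 genes (46 protein-coding), 48 of which had more than 3 counts in every control library and no more than 3 in any knockout library under vehicle. All of the 52 exceeded 3 counts in the XBP1 knockdown libraries under tunicamycin as they did in the controls. GPX1, a glutathione peroxidase, had 3, 0 and 0 counts in the control libraries and 3674, 3763 and 3926 in the knockout libraries, which is at least 1280-fold higher with a floor of 3 counts per library. ANXA8L1, which has near-identical copies, NT5E and NNMT were also among the 5 with the highest mean counts in this direction. NLGN1, a neuronal adhesion gene, had 923, 949 and 1038 counts in the control libraries and 3, 2 and 0 in the knockout libraries (at least 319-fold lower). PDCD10, MRC1L1, the pseudogene ENSG00000196656 and CCDC144NL-AS1 came after it in that direction.

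How far the difference under tunicamycin departed from the difference under vehicle was tested as the interaction of genotype and treatment over 12 libraries. The contrasts share no libraries, but the interaction contains both. TMM factors were computed anew for the libraries of each fit, so an interaction is not exactly the tunicamycin difference minus the vehicle difference. It was called above 0 for 1814 genes (10.5%) and below 0 for 2151 (12.4%), while under vehicle alone 6495 genes (37.5%) were higher and 6392 (36.9%) lower. The share of called interactions above 0 was 45.8%, but 54.6% with library totals, 57.7% without the count filter, 57% with a minimum of 10 counts in each library, and 56.4% to 58.9% when any 1 control library was left out. Of the 174 genes of the 11 ER lists, 13 (7.47%) had an interaction above 0 and 82 (47.1%) below 0, with a median of −0.247, and with library totals the counts were 19 and 76. Under vehicle 68 of these genes were higher and 64 lower in the knockout. Below 0 were 16 of 27 ERAD genes, 8 of 11 translocon and TRAP genes, 8 of 16 COPII genes and 11 of 23 cargo receptor and SNARE genes. Of 30 proteasome subunits 19 were below 0 and none above.

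Of 13 ER chaperone and folding genes 4 had interactions above 0 and 2 below. HSPA5 was 983 ± 2.26 CPM (SD, n = 3) in the knockout and 1276 ± 29.7 CPM in the control under vehicle, that is lower (−0.42), and higher under tunicamycin (0.30), with an interaction of 0.67 (SE 0.044, adjusted p = 1.06e-09). HSP90B1 (0.63), MANF (0.79), SDF2L1 (0.80), the disulfide isomerase gene PDIA4 (1.05) and the ERAD gene HERPUD1 (1.07) also had interactions above 0. PDIA4 was −0.71 under vehicle and 0.39 under tunicamycin.

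**Figure D4:**
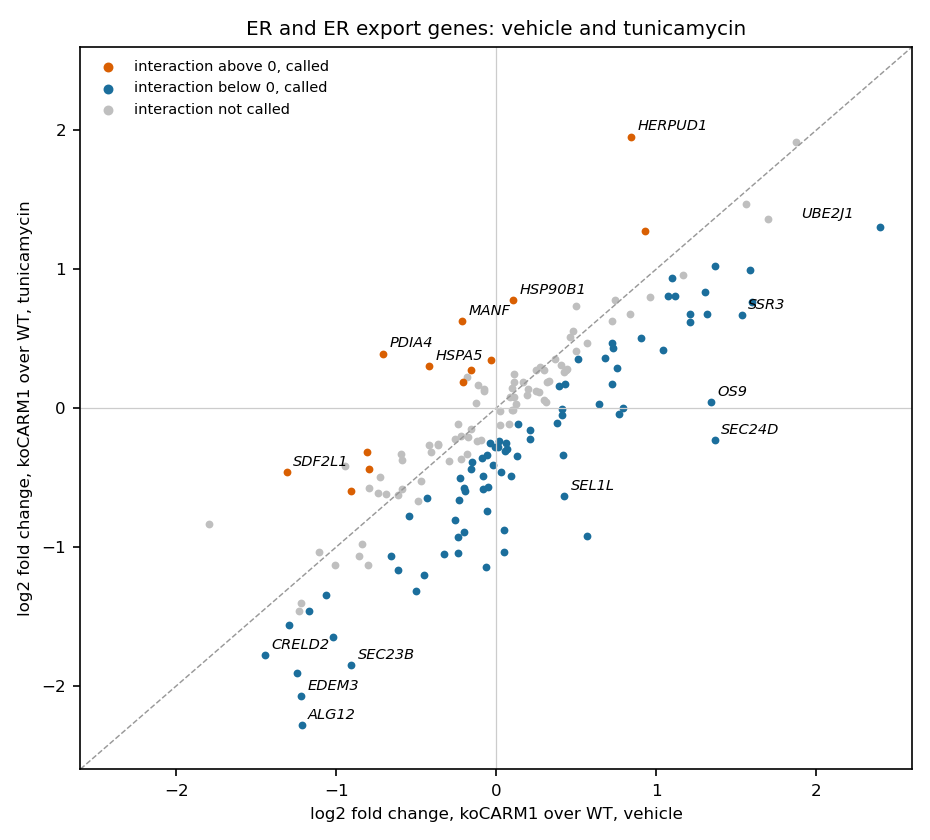
Log2 fold change of knockout over control under vehicle (horizontal) and under tunicamycin (vertical) for the 174 tested genes of the 11 ER lists, 1 point per gene, with equality as a dashed line (orange, interaction called above 0; blue, called below 0; gray, not called). There are 82 blue points below the line and 13 orange points above it.

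Opposite calls under vehicle and tunicamycin together with a called interaction were found for 305 of all genes (1.76%) and for 27 of the 499 list genes (5.41%), of which 9 were higher and 18 lower under tunicamycin. ATF3, a stress-induced transcription factor, was 4.10 ± 0.945 CPM in the knockout and 0.57 ± 0.175 CPM in the control under vehicle, but 20.3 ± 1.66 and 52.7 ± 0.798 CPM under tunicamycin (interaction −4.19, SE 0.27, adjusted p = 6.01e-10). CCPG1 was 28.2 ± 3.41 against 13.5 ± 1.40 CPM under vehicle and 54.8 ± 0.651 against 139.6 ± 15.9 under tunicamycin (−2.40). ME1, the malic enzyme that supplies NADPH (−1.70), SEC24D, a COPII cargo adaptor (−1.65), and EDEM2 (−1.53) followed. Each stood above the controls under vehicle and below them under tunicamycin. The lectin gene OS9 was 1.34 under vehicle and 0.041 under tunicamycin, so a difference before treatment was not called after it (interaction −1.35, adjusted p = 8.05e-11). SEL1L was 0.43 under vehicle and −0.63 under tunicamycin (−1.11).

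**Figure D5:**
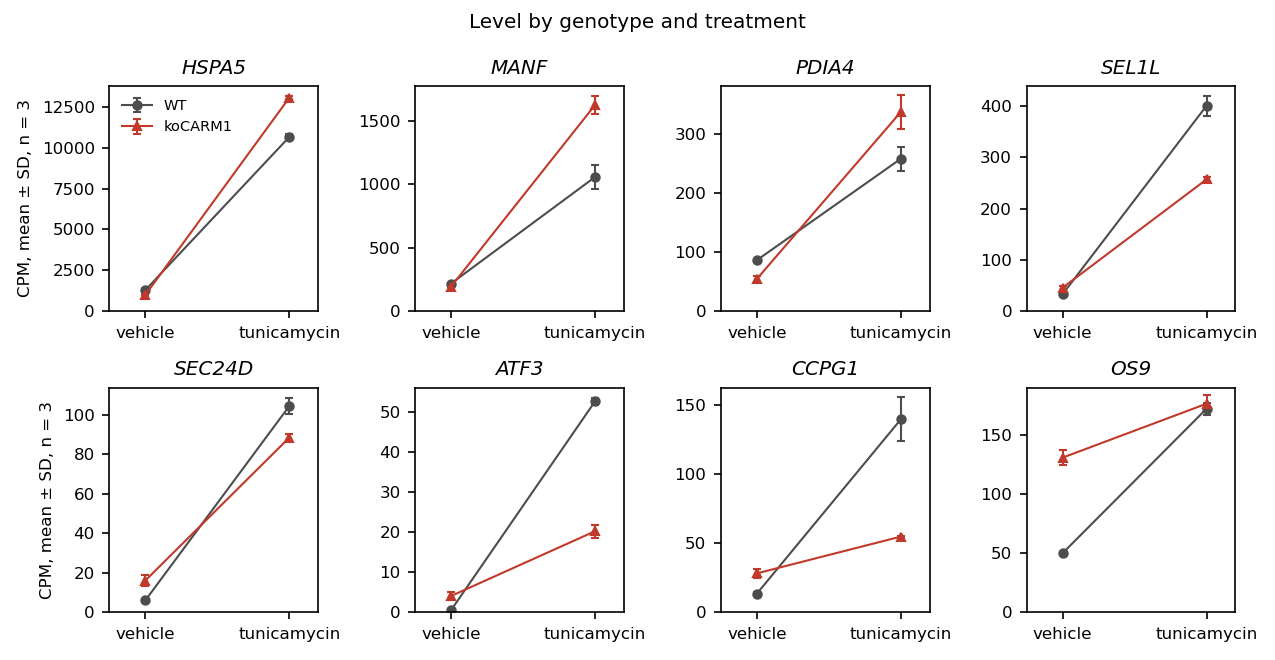
Mean CPM ± SD (n = 3) of 8 genes in control (gray circles) and CARM1 knockout (red triangles) under vehicle and tunicamycin, on linear axes from 0. The lines of HSPA5, MANF and PDIA4 end with the knockout above the control, those of SEL1L, SEC24D, ATF3 and CCPG1 end with it below, and those of OS9 start apart and end together.

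Set against the XBP1 knockdown libraries under tunicamycin, the knockout was higher for 6650 genes (38.4%) and lower for 6270 (36.2%), close to its counts against the control. This comparison shares the 3 knockout libraries with the main one. Of the 174 ER genes 83 (47.7%) were higher in the knockout than in the knockdown and 63 (36.2%) lower, with a median of 0.112. HSPA5 stood at 13079 ± 108 CPM in the knockout, 8126 ± 138 in the knockdown and 10675 ± 173 in the control. SEC24D was 88.5, 45.9 and 105 CPM in that order, SEC23B 61.8, 131 and 225, DNAJB9 47.2, 66.6 and 104, and CRELD2 175, 443 and 604. Differences from the control were called while those from the knockdown were not for 36 of the 499 list genes (7.21%, near the 6.88% of all genes tested), among them DPAGT1, ERO1B, SSR2, BET1, ALG2, EDEM2 and WIPI1, and a call that was not made does not show that their levels were alike. ERO1B, for example, was 51.4 ± 2.31 CPM in the knockout, 53.3 ± 2.68 in the knockdown and 94.9 ± 3.67 in the control (knockout over knockdown −0.048, 95% interval −0.18 to 0.087).

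Levels that matched closely were also measured. For 1306 genes (7.54%) the 95% interval of the log2 fold change allowed the knockout to be at most 25% above the control, or the control at most 25% above the knockout, and 80 of the 499 list genes (16%) were among them. Those with the highest counts were ATF4, the signal recognition particle gene SRP72 (666, 626 and 643 CPM in the control libraries and 718, 716 and 736 in the knockout libraries), the threonyl-tRNA synthetase gene TARS1 (637 and 617 CPM), the proteasome ATPase gene PSMC1 (602 and 513 CPM) and GANAB, the catalytic subunit of glucosidase II (456 and 448 CPM). The interval of GANAB ran from −0.12 to 0.084 and that of TARS1 from −0.12 to 0.042, while ATF4, SRP72 and PSMC1 were called within these narrow bounds. With library totals GANAB and TARS1 were called lower (−0.183 and −0.204) and SRP72 was not called (adjusted p = 0.899).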

How the data were processed

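RNA of 18 A1847 libraries was prepared with a 3′ mRNA-seq kit and sequenced as single reads of 75 nt. The authors aligned the reads to hg19 with bowtie2 and estimated gene counts with RSEM, whose version differs between the sources used here, on an Ensembl annotation whose release is not given in them. The deposited values are expected counts, all whole numbers, for 57736 genes. Groups were taken from the labels and all columns were mapped. Symbols and positions came from GENCODE for GRCh37 (55501 genes matched).

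Here, 17317 genes passed edgeR's filterByExpr (minimum count 10) over the 18 libraries. edgeR 4.0.16 in R 4.3.3 fitted the quasi-likelihood model to the 6 libraries of each comparison, or to the 12 of the interaction, with TMM scaling (limma 3.58.1 loaded). SEs were the log2 fold change over the root of F, and Benjamini-Hochberg adjustment ran over all genes tested. DESeq2 1.42.0, other scalings, filters, thresholds, a replicate block and leaving out each library were the alternatives. The depth, 11774445 to 13811462 counts, puts a gene at 3 counts or fewer per library at the detection floor. The intervals given are for log2 fold changes and rest on the SEs of the quasi-likelihood fit. They therefore include the spread between libraries, which may be technical. Replicate numbers were not used to pair the samples in the fits reported.

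The gene lists, the libraries compared and the rule for named genes were chosen with earlier results of these data known. Named were 10 core genes, for each list up to 2 called members at either end whose mean log2 CPM reached 3, the 10 highest and 10 lowest genes with at least 10 counts in all 6 libraries and a mean log2 CPM of 5 or more, the 5 leading genes nearly absent from 1 genotype in either direction, the 5 leading opposite calls and the 5 most abundant genes of closely matched level. Other genes named were added for their roles after their values were seen. XIST and Y-linked genes were left out. Results for some genes that these rules select are not reported here.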

Additional observations from a re-analysis of the deposited data

Results flagged for a closer look

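The difference between knockout and control was not the same under tunicamycin as under vehicle for many genes, by edgeR's test of the interaction over 12 libraries. It lay above the vehicle difference for 1814 genes and below it for 2151. Among the 172 genes named by rule, 89 had a called interaction, 30 above and 59 below 0.

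Among the core genes, the interaction was 0.674 for HSPA5 (adjusted p = 1.06e-09), 0.392 for DDIT3 (adjusted p = 0.0187) and 0.367 for XBP1 (adjusted p = 0.0341), and it was −0.818 for ATF6 (adjusted p = 1.65e-06) and −0.517 for ATF4 (adjusted p = 9.97e-07). The call for XBP1 was lost without replicate 1 of the knockout under vehicle (adjusted p = 0.137), without replicate 3 of that group (adjusted p = 0.109), and without replicate 2 or 3 of the knockout under tunicamycin (adjusted p = 0.0671 and 0.0609). The call for DDIT3 was lost without replicate 1 or 2 of the knockout under vehicle (adjusted p = 0.0745 and 0.0652).

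Of the genes called in opposite directions, the interaction was −4.19 for ATF3 (adjusted p = 6.01e-10), −2.4 for CCPG1 (adjusted p = 1.71e-10), −1.7 for ME1 (adjusted p = 1.33e-08), −1.65 for SEC24D (adjusted p = 1.97e-08) and −1.53 for EDEM2 (adjusted p = 4.18e-04). Groups of 3 libraries are too small for the test of single outlying values, which was not run.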

How the results depend on the processing

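Under the alternatives run (DESeq2 size factors, library totals, the DESeq2 Wald test, no count filter, a minimum of 10 counts in each library, a single fit of all 18 libraries, the replicate block, an FDR of 1%, a fold of at least 1.5 and leaving out each library), counts of genes called under tunicamycin, under vehicle and against the knockdown stayed within 1.5 times of those reported. Leaving out single libraries gave 6373 to 6599 genes higher and 6021 to 6226 lower under tunicamycin, and 1549 to 2324 interactions above 0 and 1467 to 1978 below. Called interactions numbered 1112 above and 1419 below 0 at an FDR of 1%, and 882 and 1059 with a fold of at least 1.5, which are stricter limits on the same fit. Which side held more called interactions changed with the scaling and filter, and without any 1 control library of either treatment, and the cause was not tested. In the 174 ER genes interactions below 0 outnumbered those above in all 21 alternatives (34 to 82 below, 6 to 21 above).

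With the replicate number as a block 12605 genes were called under tunicamycin in place of 13018 and 3747 interactions in place of 3965. Deviations of same-numbered libraries under tunicamycin correlated at −0.0376, 0.008 and 0.018, and those of differently numbered ones at −0.0362 to 0.0271. No pairing by number was seen, but these values cannot show whether a number stands for a shared culture or day. Of the named genes 34 calls were lost and 3 gained over all alternatives, and none reversed. ERN1 kept its call in few of them, with an adjusted p of up to 0.617 by library totals, and ATF4 lost it with the stricter count filter (adjusted p = 0.0688). The interaction of CARM1, 0.204, was not called as reported and was called in 13 of 21 alternatives. Of the counts of list members 60 moved by more than 1.5 times and 1080 did not. Depth limits genes at no more than 3 counts, whose fitted fold changes are no bounds.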

Other observations

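The median log2 fold change of knockout over control under tunicamycin differed between chromosomes, from −0.314 on the X chromosome to 0.457 on chromosome 8, beside −0.0165 over all genes tested. Under vehicle the medians of these chromosomes were similar, at −0.225 and 0.465.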
